A study of Mus musculus with 40 samples.

Results

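Members of the T-cell receptor complex, its coreceptors and its first kinases were followed in 39 whole primary tumors of mouse triple-negative mammary cancer. The members were 10 genes of the 14318 listed by RNA sequencing, taken by their symbols. They are the chains Cd3e, Cd3d, Cd3g and Cd247, the coreceptors Cd4, Cd8a and Cd8b1, the kinases Lck and Zap70, and Cd6. All 10 were listed, and none was taken out by a filter on low values.

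A T cell reads antigen through a receptor whose variable chains have no signaling tail of their own. CD3 epsilon, delta and gamma and the zeta chain encoded by Cd247 carry that tail. CD4 binds major histocompatibility complex class II and CD8 binds class I, and both bring the kinase LCK to the receptor. LCK phosphorylates the CD3 and zeta tails, to which ZAP-70 binds. CD6 is a scavenger-receptor family glycoprotein of T cells that modulates this signal. Anti-PD-1 blocks an inhibitory receptor of T cells.

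Lactating wild-type BALB/c females had been injected through the teat canal with luciferase-labeled 4T1 or 66cl4 mammary tumor cells, each model resting on 1 cell line. Mice were left untreated, or were given i.p. injections of 200 µg anti-PD-1 (clone RMP1-14), 1 mg chitin particles, a blocker of chitinase-like proteins, or both. Primary tumors were collected at 5 w p.i. Each of the 8 groups had 5 tumors, except 4T1 untreated with 4, namely tumors 1, 2, 4 and 5. Because RNA came from whole tumors, fewer T cells and less RNA per T cell cannot be told apart in any value below.

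Recovered reads on listed genes ran from 5105898 to 14800352 per tumor, with a median of 6590274. The members were weakly covered in places, with 1 to 25 reads per 66cl4 tumor for Cd8b1 and 34 to 495 reads per 4T1 tumor for Cd8a. The deposited values are on a variance-stabilized (VST) log2-like scale on which 0 reads equal 6.05, and differences on it understate the fold at low counts. Ratios of mean normalized counts (reads over a size factor for each tumor) are therefore given as well. Markers of T cells other than the members were present, with 7 of 10 listed and a summed normalized count of 57.8 to 658 in 4T1 and 39.6 to 157 in 66cl4 tumors. The constant-region genes Trac, Trbc1 and Trbc2 are not analysed here.

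The 10 genes lie on 5 chromosomes of GRCm38.p6. Cd3g, Cd3d and Cd3e form a cluster of 40.09 kb on chromosome 9, at 44969572-44980431, 44981769-44987052 and 44998735-45009663. Cd3g and Cd3d point away from each other with their starts 1.338 kb apart. Cd8b1 (71322788-71337492) and Cd8a (71373427-71379171) are 35.94 kb apart on chromosome 6, which also holds Cd4 (124864693-124888247). Cd247 is on chromosome 1 at 165779952-165871153, with Zap70 on the same chromosome at 36761798-36782821. Lck is on chromosome 4 at 129548344-129573641 and Cd6 on chromosome 19 at 10789339-10830062.

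RefSeq upstream windows of GRCm38.p6 were matched for 7 of the 10 members, with 10 start sites, but not for Cd4, Cd8b1 and Cd6. The 250 bases before 1 RefSeq transcript start are shown for the 3 clustered CD3 genes, which followed each other across tumors, for Cd247, which did so least, and for Cd8a, which differed most between the models. The start used for Cd247 lies inside the outer bounds of the gene given above, and the windows of Cd3e and Cd3d overlap such bounds. Capitals mark matches on either strand to the letters GGAAGT (ETS), TGTGGT (RUNX), CAGNTG (E-box) and CTTTGA (TCF/LEF).
Cd3e (chr9:45009612-45009861, minus strand): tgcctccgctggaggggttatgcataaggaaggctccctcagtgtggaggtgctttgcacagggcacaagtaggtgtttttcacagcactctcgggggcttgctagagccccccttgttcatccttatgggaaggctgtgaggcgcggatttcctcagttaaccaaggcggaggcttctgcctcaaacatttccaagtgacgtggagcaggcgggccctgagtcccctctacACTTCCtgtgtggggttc
Cd3d (chr9:44981536-44981785, plus strand): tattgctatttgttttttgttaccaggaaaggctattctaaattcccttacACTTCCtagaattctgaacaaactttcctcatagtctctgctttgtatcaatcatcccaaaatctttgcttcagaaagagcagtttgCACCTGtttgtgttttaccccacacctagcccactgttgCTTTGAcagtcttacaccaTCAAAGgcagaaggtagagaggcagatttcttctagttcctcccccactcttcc
Cd3g (chr9:44980432-44980681, minus strand): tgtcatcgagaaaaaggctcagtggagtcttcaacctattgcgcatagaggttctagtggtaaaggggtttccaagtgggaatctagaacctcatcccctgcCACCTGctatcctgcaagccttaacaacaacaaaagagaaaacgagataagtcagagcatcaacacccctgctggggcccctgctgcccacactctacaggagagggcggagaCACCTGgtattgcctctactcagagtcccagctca
Cd247 (chr1:165788431-165788680, plus strand): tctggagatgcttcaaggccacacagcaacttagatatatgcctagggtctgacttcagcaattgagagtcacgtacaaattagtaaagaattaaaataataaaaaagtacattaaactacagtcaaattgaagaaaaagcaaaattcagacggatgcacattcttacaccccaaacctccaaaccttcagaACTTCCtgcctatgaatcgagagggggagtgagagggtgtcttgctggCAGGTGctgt
Cd8a (chr6:71373177-71373426, plus strand): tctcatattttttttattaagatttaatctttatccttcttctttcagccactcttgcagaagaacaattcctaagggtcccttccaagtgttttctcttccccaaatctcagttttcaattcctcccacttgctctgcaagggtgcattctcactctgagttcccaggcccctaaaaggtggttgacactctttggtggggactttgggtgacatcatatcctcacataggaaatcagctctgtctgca

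Cd3e held 1 ETS match at position -18 from the transcript start, and Cd3g held E-box matches at -148 and -35. Cd3d held an ETS match at -199, an E-box match at -112 and TCF/LEF matches at -73 and -54. Cd247 held an ETS match at -58 and an E-box match at -10. The window of Cd8a held 0 matches to these letters, and none of the 10 windows of members held TATAAA. Among 32851 windows of this length in the genome, 19.7% held the ETS letters, 14.0% the RUNX letters, 44.8% the E-box, 13.8% the TCF/LEF letters and 12.4% TATAAA, with overlaps between motifs allowed. A match is a string of letters and not a measured binding site.

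Levels of different genes were compared as normalized counts per kb of exon. In 4T1 tumors, Cd8a was at 65.9 ± 40.7 (SD, n = 19), Cd8b1 at 65.2 ± 42.3 and Lck at 56.7 ± 37.7. Cd3g followed at 41.6 ± 29.7, Cd3d at 26.9 ± 19.9, Cd3e at 23.3 ± 16.2, Zap70 at 21.1 ± 14.7 and Cd247 at 21.1 ± 5.27. Cd4 was at 15.5 ± 15.9 and Cd6 at 7.75 ± 6.55. Each step in this order was smaller than the larger of the SDs of its neighbors. In 66cl4 tumors the order opened with Cd247 at 22.3 ± 2.48 (n = 20), then Lck at 17.7 ± 4.20, and the coreceptor Cd4 at 9.23 ± 4.98 stood above Cd8a at 6.77 ± 2.70. The others were between 2.37 (Cd6) and 9.47 (Cd3g). In this order, the steps that exceeded the larger SD of the neighbors were those from Cd247 to Lck, from Lck to Cd3g and from Cd3e to Cd6.

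**Figure D1:**
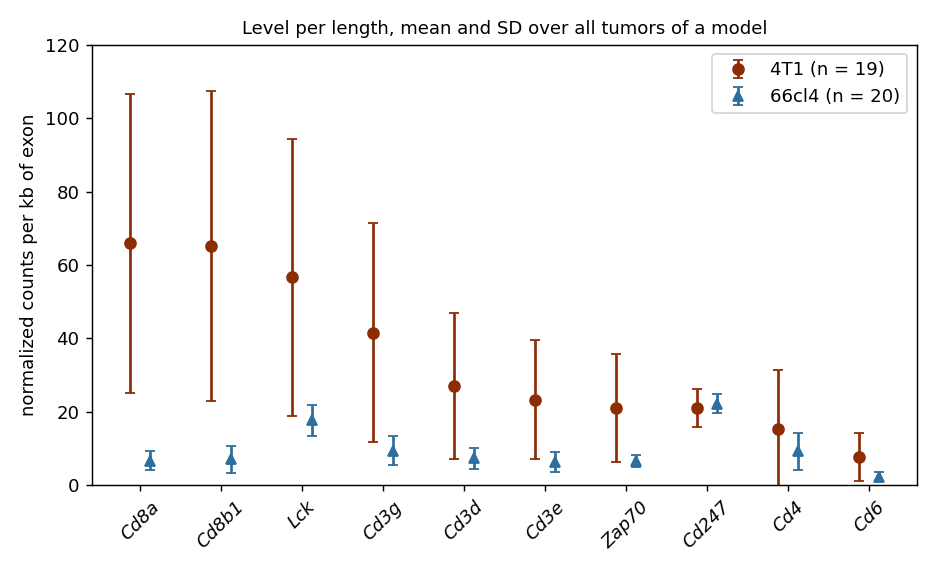
Mean level of each member as normalized counts per kb of exon (vertical axis), with SD over all 4T1 (circles) and all 66cl4 tumors (triangles), ordered by the 4T1 mean. Cd8a was at 65.9 in 4T1 and 6.77 in 66cl4, while Cd247 was at 21.1 and 22.3. The lower SD bar of Cd4 in 4T1 reaches the axis limit of 0.

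Between the models, CD8 genes differed most. Over the 4 treatment groups, Cd8a was higher in 4T1 by 1.46 ± 0.12 (SE) on the VST scale (limma, adjusted p = 2.14e-13), and Cd8b1, which encodes the beta chain that pairs with it, by 1.00 ± 0.09 (adjusted p = 2.78e-12). These were 9.68 and 9.12 times the normalized counts of 66cl4. The Cd8a counts ran from 49.0 to 633 in 4T1, with a median of 212, and from 7.91 to 44.8 in 66cl4, with a median of 24.6. All 19 4T1 tumors thus lay above all 20 66cl4 tumors for Cd8a, which also held for Cd8b1. Such complete separation with 4T1 above was seen for 2 of 10 members and for 9.87% of all genes.

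The chains and kinases differed less. Cd3g was higher in 4T1 by 0.84 ± 0.09, Lck by 0.73 ± 0.09 and Cd3e by 0.66 ± 0.09, with adjusted p of 3.14e-10, 1.09e-08 and 2.27e-08 (limma). Cd6 was higher by 0.50, Zap70 by 0.49 and Cd3d by 0.48, each with an SE of 0.08, and the largest adjusted p among these was 1.57e-06. In normalized counts these 6 genes stood at 3.14 to 4.35 times their 66cl4 level. Thus 8 of 10 members passed the test, at a background of 40.8% of all genes called higher in 4T1. The other two did not pass. Cd4 had a difference of 0.15 (95% CI -0.06 to 0.36, adjusted p = 0.191) and Cd247 of -0.06 (95% CI -0.15 to 0.03, adjusted p = 0.195).

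The balance of the coreceptors was also different. The ratio of Cd8a to Cd4 reads ran from 1.75 to 29.7 in 4T1, with a median of 5.30, and from 0.2 to 1.64 in 66cl4, with a median of 0.773. The lowest 4T1 tumor was above the highest 66cl4 tumor. Pooled over treatments, the ratio of Cd8a to Cd8b1 reads had a median of 2.43 in 4T1 (1.89 to 3.58) and 2.30 in 66cl4 (0.82 to 28.0). That of Lck to Cd3e reads had medians of 1.78 (1.30 to 3.0) and 1.98 (1.27 to 7.17). In untreated tumors alone, the medians of Lck to Cd3e were 1.79 in 4T1 and 3.7 in 66cl4. The ratio of Cd247 to Cd3e reads had a median of 1.31 in 4T1 and 4.26 in 66cl4. Cd247 stayed between 94.8 and 139 normalized counts in all 66cl4 tumors, across which Cd3e ran from 5.28 to 49.7.

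**Figure D2:**
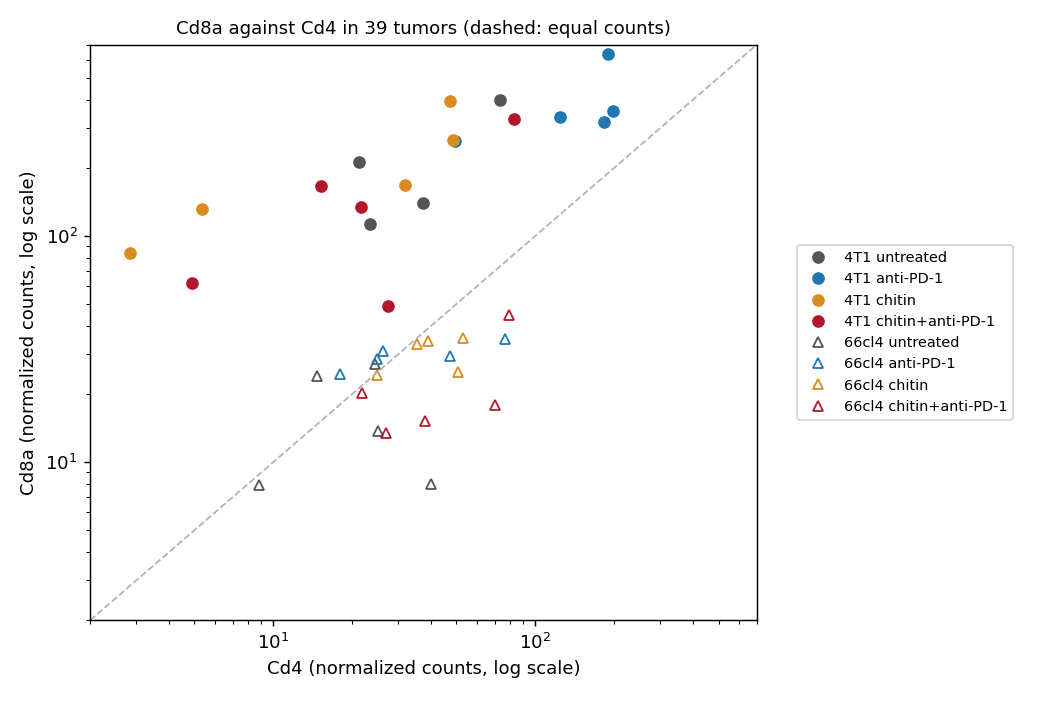
Normalized counts of Cd4 (horizontal log axis) against Cd8a (vertical log axis), 1 point per tumor, with 4T1 as filled circles and 66cl4 as open triangles, colored by treatment. All 19 4T1 tumors lie above the dashed line of equal counts, by a ratio of reads of 1.75 or more, and the 66cl4 tumors lie on both sides of it.

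Other cell types also differed between the models. The Cd8a difference was accompanied by 3 of 6 markers of conventional dendritic cells of type 1, cells that can carry Cd8a, called higher in 4T1 and 1 lower (median difference 0.32). For plasmacytoid dendritic cells, which can carry Cd4, 1 of 6 markers was called higher (median 0.13). For NK cells 6 of 8 were higher and 2 lower (median 0.29). The lower NK markers were Ncr1 and Prf1, with median normalized counts of 7.29 and 94.9 in 4T1 and 28.7 and 227 in 66cl4. Macrophage markers were lower in 4T1 in 8 of 8 (median -0.97), neutrophil markers higher in 6 of 7 (median 1.01), and epithelial tumor markers higher in 6 of 6 (median 3.36). Their part in the member differences was not tested.

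Within 4T1 tumors, the anti-PD-1 group had the highest member levels. The mean over the 10 members was 8.17 ± 0.29 (SD, n = 5) on the VST scale, against 7.53 ± 0.36 (n = 4) untreated, 7.45 ± 0.38 (n = 5) under chitin and 7.32 ± 0.35 (n = 5) in the combination. The 66cl4 means (n = 5 each) were 6.86 ± 0.10 untreated, 7.0 ± 0.07 under anti-PD-1, 7.06 ± 0.07 under chitin and 7.04 ± 0.16 in the combination. None of the comparisons between treatments below reached an adjusted p of 0.05 for any member in limma.

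**Figure D3:**
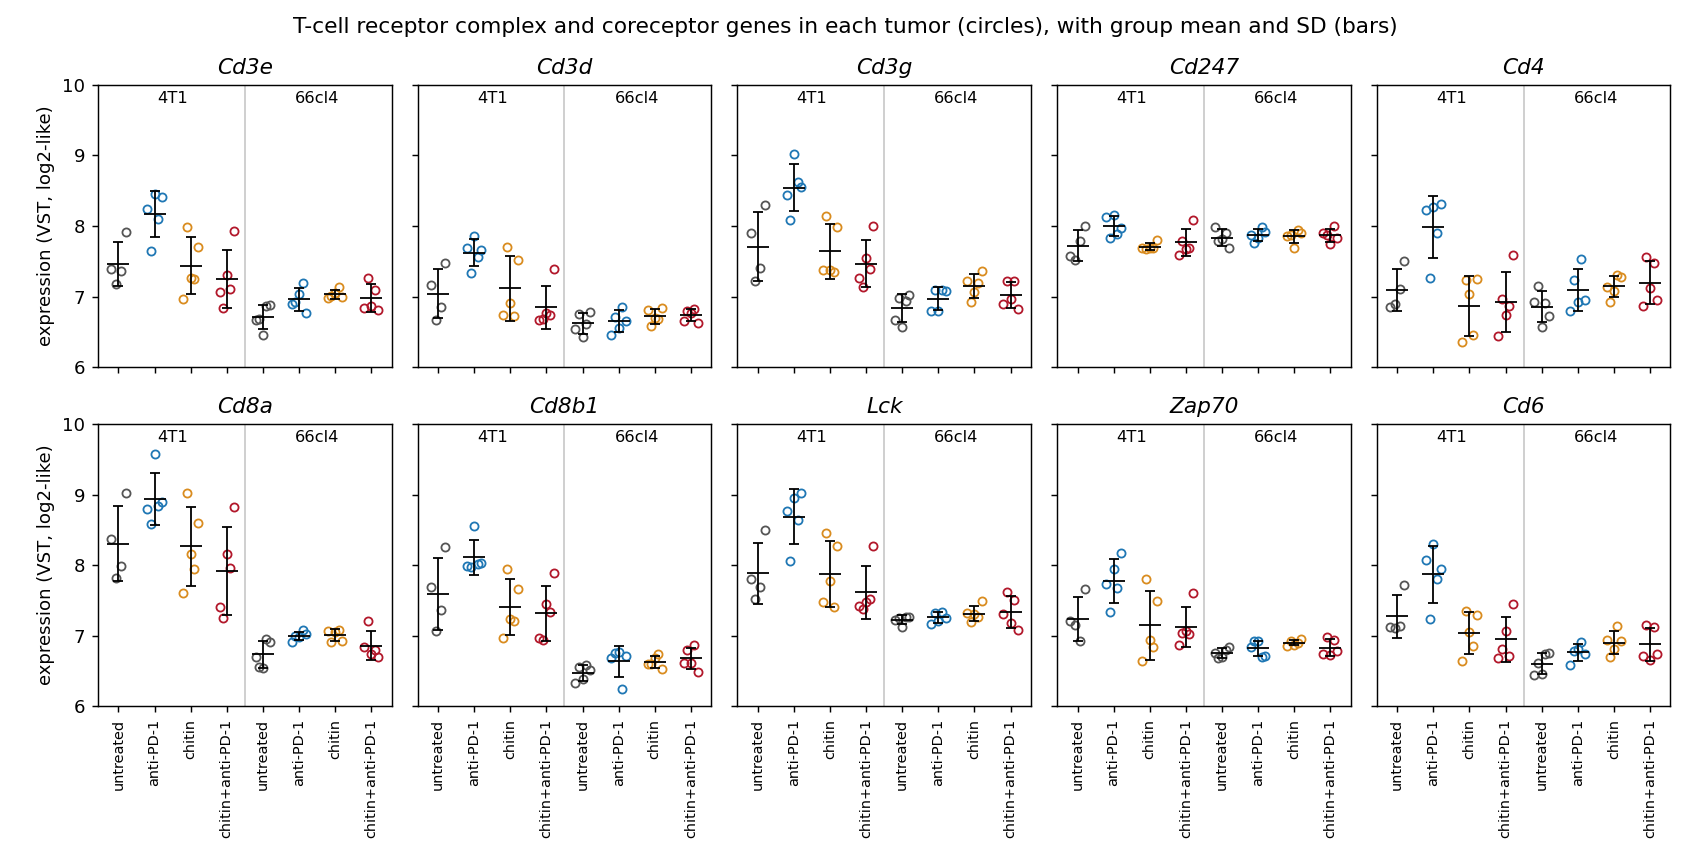
Expression of each member (VST, log2-like, vertical axis) in each tumor (circles) of the 8 groups, with the group mean and SD (black bars). In 4T1, all 5 anti-PD-1 tumors had Cd3g values from 8.09 to 9.02 and all 5 chitin + anti-PD-1 tumors from 7.13 to 8.0, while Cd247 was between 7.69 and 7.99 in all 66cl4 tumors.

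Anti-PD-1 monotherapy was compared with no treatment in 4T1 to ask whether blockade alone went with more T-cell receptor RNA. All 10 members had a higher mean in anti-PD-1 tumors, by 0.27 to 0.90 (median 0.62, against 0.00 over all genes), or 1.39 to 3.82 times in normalized counts. At an unadjusted p under 0.05, 9 of 10 members were higher, all but Cd8a, against 4.52% of all genes. After adjustment over 14318 genes, 0 members and 0% of all genes passed in limma, in which 1273 genes had an unadjusted p under 0.05, and 0 passed in limma-voom.

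Cd3e, the chain with the widest use as a T-cell marker, had 61.5, 42.2, 59.2 and 126 normalized counts in untreated tumors and 184, 89.7, 232, 158 and 220 in anti-PD-1 tumors. The groups overlapped through untreated tumor 5 and anti-PD-1 tumor 2, and the difference was 0.71 ± 0.23 (limma, adjusted p = 0.517). Cd3g had 125, 45.3, 62.9 and 195 counts against 229, 155, 394, 271 and 256, a difference of 0.84 ± 0.24 (limma, adjusted p = 0.517). Again, anti-PD-1 tumor 2 alone was below the highest untreated tumor. Cd3d differed by 0.58 ± 0.21, with 12.5 to 69.5 counts untreated and 56.2 to 119 with anti-PD-1. For Cd247 the difference was 0.27 ± 0.11, with 75.1 to 142 and 115 to 168 counts.

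Of the coreceptors, Cd4 had the largest difference, with 21.3, 23.5, 37.3 and 73.4 counts in untreated tumors and 182, 49.5, 189, 124 and 198 in anti-PD-1 tumors. The groups overlapped only by anti-PD-1 tumor 2, and the difference was 0.90 ± 0.25 (limma, adjusted p = 0.517). Cd8a had 212, 113, 139 and 397 counts in untreated and 320, 262, 633, 336 and 354 in anti-PD-1 tumors. Here 1 anti-PD-1 tumor was above all untreated tumors, and the difference of 0.64 ± 0.33 had a 95% CI of -0.05 to 1.32. Cd8b1 differed by 0.52 ± 0.24, with 34.4 to 189 against 135 to 255 counts, and by 0.34 without untreated tumor 2. The ratio of Cd8a to Cd4 reads had a median of 5.11 in untreated and 2.72 in anti-PD-1 tumors, with ranges of 3.73 to 9.94 and 1.75 to 5.30 that overlapped.

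Lck had 111, 75.1, 95.6 and 242 counts in untreated and 314, 150, 372, 277 and 396 in anti-PD-1 tumors, a difference of 0.81 ± 0.26. Zap70 differed by 0.53 ± 0.23, with 24.6 to 91.7 against 56.2 to 170 counts. Cd6 differed by 0.60 ± 0.21, with 37.5 to 99.6 against 46.8 to 196 counts. No member separated the groups completely, and 0.65% of all genes had all anti-PD-1 above all untreated tumors. At so small a share, 10 members need hold no such gene. Of the anti-PD-1 tumors, tumor 2 was lowest for 10 of 10 members, and of the untreated tumors, tumor 5 was highest for 10 of 10. Without anti-PD-1 tumor 2, 80 genes passed the adjusted threshold in limma, of the members Cd4 (1.08, adjusted p = 0.0479). With both models in 1 fit 2 members passed, and with weights estimated per tumor 8 did.

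Markers of other cells are given beside this, none of which passed adjustment. In 4T1 anti-PD-1 tumors, 4 of 4 listed B-cell markers had an unadjusted p under 0.05 (median 0.84), with a summed normalized count of 53.5 to 663 against 29.6 to 151 untreated. For type 1 conventional dendritic cells, 4 of 6 markers did so (median 0.70, summed 2525 to 3848 against 1245 to 3304), and for macrophages 0 of 8 (median 0.40, summed 13287 to 33552 against 15325 to 24753). Of NK-cell markers 1 of 8 did so (median 0.29, summed 881 to 1535 against 366 to 1523). Of naive-lymphocyte or lymph-node markers 3 of 8 did so (median 0.31, summed 601 to 1473 against 597 to 1058). For the listed milk-protein genes it was 3 of 3 (median 1.99), and their summed count ran from 4.01 to 2826 against 4.73 to 216. Among all genes, 4.52% were higher at this unadjusted p. No listed marker of these cell types was at 0 in all tumors of a group. Their part in the member differences was not tested.

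Chitin alone and chitin + anti-PD-1 were compared with the same untreated 4T1 tumors. With chitin, member differences ran from -0.23 (Cd6 and Cd4) to 0.08 (Cd3d), with adjusted p of 1 throughout and 0% of all genes called (397 genes had an unadjusted p under 0.05). Cd4 had 2.84, 47.2, 31.9, 5.32 and 48.6 counts under chitin, so that tumors 1 and 4 were below all untreated tumors. Without untreated tumor 5 the differences were -0.082 for Cd6 and -0.090 for Cd4. With the combination, the differences ran from -0.39 (Cd8a, 95% CI -1.07 to 0.30) to 0.04 (Cd247), with 0% of all genes called and 367 with an unadjusted p under 0.05. The Cd8a difference was -0.14 without untreated tumor 5 and -0.61 without combination tumor 5, and that of Cd6 moved from -0.33 to -0.18 without untreated tumor 5. In both comparisons 0 members reached an unadjusted p under 0.05.

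The combination was compared with anti-PD-1 to ask what chitin added, using the same anti-PD-1 tumors as above. All 10 members had a lower mean in 4T1 tumors given both, by 0.23 to 1.08 (median -0.92, against 0.01 over all genes), and the normalized counts were 0.204 to 0.760 times those of anti-PD-1 tumors. At an unadjusted p under 0.05, 10 of 10 members were lower, compared with 5.59% of all genes. After adjustment, 0 members and 0% of all genes passed in limma (1307 genes had an unadjusted p under 0.05), and 0 passed in limma-voom.

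Cd3g had 49.9, 38.9, 77.1, 60.9 and 141 counts in the combination, and all of these were below the lowest anti-PD-1 tumor at 155 (difference -1.08 ± 0.23, limma, adjusted p = 0.259). Cd8b1, at 27.8, 25.9, 67.0, 56.3 and 122 against a lowest anti-PD-1 tumor at 135, also did not overlap (difference -0.80 ± 0.23, limma, adjusted p = 0.325). Such separation held for 2 of 10 members and 0.684% of all genes. Lck had 63.8, 60.5, 70.8, 74.1 and 190 counts, in which tumor 5 alone exceeded the lowest anti-PD-1 tumor at 150 (difference -1.08 ± 0.24). Cd3e was at 34.4, 20.2, 53.1, 37.5 and 129, with tumor 5 again alone in the anti-PD-1 range (difference -0.92 ± 0.22).

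Cd4 had 4.91, 27.4, 15.2, 21.6 and 82.8 counts in the combination, a mean 0.204 times that of anti-PD-1 tumors (difference -1.07 ± 0.24, limma, adjusted p = 0.259). Cd8a had 62.2, 49.0, 167, 134 and 329 counts, of which tumor 5 was within the anti-PD-1 range (difference -1.02 ± 0.31, limma, adjusted p = 0.353). Cd6 ran from 13.1 to 67.6 counts (difference -0.92 ± 0.20) and Cd3d from 12.3 to 60.6 (-0.78 ± 0.20). Zap70 ran from 22.1 to 85.1 (-0.65 ± 0.21) and Cd247 from 82.6 to 155 (-0.23 ± 0.10). Tumor 5 was the highest of the combination group for 10 of 10 members.

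The call depended on the fit and on 1 tumor. Tumor 2 was the lowest anti-PD-1 tumor for 10 of 10 members, so leaving it out had to widen their differences. Without combination tumor 5, 1 gene passed in limma. Without anti-PD-1 tumor 2, 202 genes and 5 members passed in limma, namely Cd6 (-1.08, adjusted p = 0.0125), Cd4 (-1.26, adjusted p = 0.0156), Cd3g (-1.19, adjusted p = 0.0236), Lck (-1.23, adjusted p = 0.0236) and Cd3e (-1.05, adjusted p = 0.027). With both models in 1 fit 9 members passed, and with weights per tumor 10 did. At an unadjusted p under 0.05, B-cell markers were lower in 4 of 4 (median -1.02), those of type 1 conventional dendritic cells in 6 of 6 (median -0.92), of macrophages in 5 of 8 (median -0.84) and of NK cells in 5 of 8 (median -0.43). Neutrophil markers were higher in 3 of 7 (median 0.70, summed 4406 to 24229 against 3084 to 9843), and no marker passed adjustment. Their part in the member differences was not tested.

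**Figure D4:**
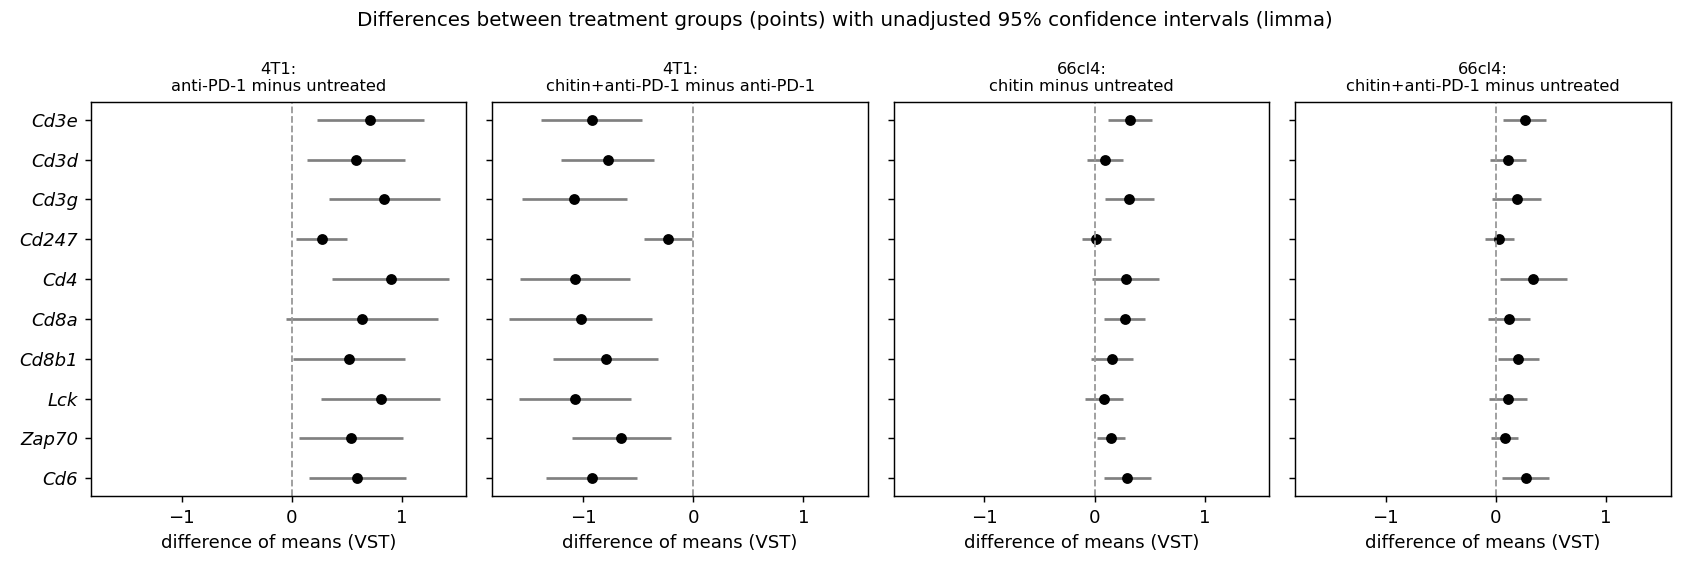
Difference of group means for each member (points, VST scale, horizontal axis) with unadjusted 95% confidence intervals from limma, in 4 comparisons. Points lie between 0.27 and 0.90 for anti-PD-1 in 4T1, between -1.08 and -0.23 for the combination against anti-PD-1, and nearer to 0 in 66cl4, where the largest is 0.34. The VST scale compresses the low counts of 66cl4. Median ratios of normalized counts were 2.34 and 0.308 in these 4T1 comparisons, and 1.81 for chitin and 1.45 for the combination in 66cl4. No difference passed adjustment over all genes.

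In 66cl4 tumors, 8 of the 10 members had mean counts under 40, with Cd247 and Lck above. Each of the 3 treated groups was compared with the same untreated tumors, and 10 of 10 members had a higher mean in each. Under chitin the differences ran from 0.02 (Cd247) to 0.32 (Cd3e), with a median of 0.21, or 1.02 to 2.35 times in normalized counts. Unadjusted p under 0.05 was reached by 5 of 10 members, compared with 6.17% of all genes higher, and an adjusted p of 0.05 by 0 members and 0% of all genes in limma (1639 genes had an unadjusted p under 0.05) and by 0 in limma-voom.

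Cd3e had 12.5, 12.6, 5.28, 21.9 and 22.7 counts in untreated and 28.4, 30.6, 33.1, 39.3 and 29.2 in chitin-treated 66cl4 tumors. All chitin tumors were above all untreated ones (difference 0.32 ± 0.09, limma, adjusted p = 0.226). Zap70 did not overlap either, with VST values of 6.68 to 6.83 against 6.86 to 6.95 (difference 0.15 ± 0.06, limma, adjusted p = 0.345). This held for 2 of 10 members and 0.978% of all genes. Cd3g differed by 0.32, Cd6 by 0.30, Cd4 by 0.29, Cd8a by 0.27 and Cd8b1 by 0.16, with overlapping tumors. The median depth was 10250227 reads under chitin and 6064018 without treatment. At equal read depth the Cd3e difference was 0.27 (limma, adjusted p = 0.224), that of Cd3g 0.24 and that of Cd8a 0.21. Those of Zap70 and Lck were 0.11 and 0.0032, the latter from 0.09 as sequenced. Thinning every tumor to the shallowest lowers the counts, which the scale then compresses, so these values cannot tell the part of depth. For anti-PD-1 in 4T1, with median depths of 6164483 reads and 6295440 untreated, the Cd3e difference also shrank, from 0.71 to 0.62.

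In 66cl4 under anti-PD-1 alone, Cd8a (0.26 ± 0.09) and Cd3e (0.25 ± 0.09) reached an unadjusted p under 0.05, that is 2 of 10 members against 2.8% of all genes. Cd8a had 13.8, 8.02, 7.91, 27.0 and 24.0 counts untreated and 24.4, 29.4, 28.5, 35.0 and 31.0 with anti-PD-1, in which tumor 1 was within the untreated range. No member separated these groups completely (0.335% of all genes did), and 0% of all genes passed adjustment in limma, with 767 at an unadjusted p under 0.05. With the combination, Cd4 differed by 0.34 ± 0.15, Cd6 by 0.27 ± 0.10, Cd3e by 0.26 ± 0.09 and Cd8b1 by 0.20 ± 0.09, the 4 of 10 members with an unadjusted p under 0.05, compared with 5.77% of all genes. No member separated completely against 1.1% of all genes, and 0% passed adjustment in limma, with 1516 at an unadjusted p under 0.05. Depth was unequal here as well, with a median of 8985408 reads in the combination and 6064018 without treatment.

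Cd4 in the 66cl4 combination had 21.8, 79.0, 37.9, 70.3 and 26.9 counts against 25.03, 40.1, 8.79, 24.5 and 14.7 untreated, with tumors 2 and 4 above all untreated tumors. Compared with anti-PD-1, the combination in 66cl4 had member differences of -0.14 (Cd8a, 95% CI -0.33 to 0.05) to 0.11 (Cd6), with adjusted p of 0.696 or more and 0% of all genes called (1188 had an unadjusted p under 0.05). Without combination tumor 2, the Cd8a difference was -0.23 and that of Cd6 0.044, and Cd8a in the combination against untreated moved from 0.12 to 0.032. At an unadjusted p under 0.05, macrophage markers were higher with chitin in 5 of 8 (median 0.34, summed 38163 to 44600 against 25947 to 38325 untreated) and with the combination in 6 of 8 (median 0.36). Markers of type 1 conventional dendritic cells were so in 2 of 6 with chitin (median 0.19, summed 1672 to 2078 against 1155 to 1923), 4 of 6 with the combination (median 0.22) and 1 of 6 with anti-PD-1 (median 0.12). No marker passed adjustment. Their part in the member differences was not tested.

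Whether the anti-PD-1 effect differed between the models was tested directly, as the 4T1 difference minus the 66cl4 difference. On the VST scale it was positive for 10 of 10 members, from 0.23 (Cd247) to 0.77 ± 0.27 (Lck), and 4 of 10 (Lck, Cd3g at 0.71, Cd4 at 0.67 and Cd3d at 0.56) had an unadjusted p under 0.05, against 2.98% of all genes. With adjusted p of 0.628 to 0.822 in limma, 0 members and 0% of all genes passed (1041 genes had an unadjusted p under 0.05), so the effects were not shown to differ. For Cd8a the value of 0.37 turned to -0.16 with limma-voom on recovered reads. In normalized counts, the direction was the other way for both CD8 genes, with anti-PD-1 ratios of 1.77 in 4T1 and 1.84 in 66cl4 for Cd8a and of 1.74 and 2.06 for Cd8b1.

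Genes next to the receptor were taken as a list of 30, of which 24 were listed. In 4T1, anti-PD-1 against untreated tumors gave 12 of 24 with an unadjusted p under 0.05 and a higher mean and 0 lower (median 0.40), beside 4.52% of all genes higher. The combination against anti-PD-1 gave 15 of 24 lower and 0 higher (median -0.43), beside 5.59% of all genes lower. None passed adjustment. The smallest unadjusted p belonged to Cd2, an adhesion receptor of T cells, with 0.87 ± 0.19 and -0.91 ± 0.18. Cd5, a scavenger-receptor relative of CD6, had 0.67 and -0.83, and the phosphatase Ptpn22 had 0.59 for anti-PD-1. The adaptor Grap2 differed by -0.88 and the developmental regulator Themis by -0.44 for the combination against anti-PD-1. Between models, 16 of 24 were called higher and 4 lower in 4T1 (median 0.29), where 40.8% of all genes (5838) were called higher and 5445 genes lower. The smallest p belonged to Thy1, a surface glycoprotein that is not restricted to T cells (1.83 ± 0.13, limma, adjusted p = 1.46e-14), and the adaptor Skap1 (0.56 ± 0.04, adjusted p = 3.77e-14).

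Of 12 T-cell transcription factors, 4 had an unadjusted p under 0.05 and a higher mean with anti-PD-1 in 4T1 (median 0.25, beside 4.52% of all genes), namely Ikzf3 (0.78 ± 0.24), Tox (0.58), Bcl11b (0.59) and Lef1 (0.30). For the combination against anti-PD-1, 5 were lower (median -0.26, beside 5.59% of all genes), led by Ikzf3 (-0.96 ± 0.22) and Tox (-0.71). Runx3 and Zbtb7b, which act in CD8 and CD4 T cells, differed by -0.41 and -0.25 with chitin alone. Not all of these levels need come from T cells. Median normalized counts in 4T1 were 1124 for Ets1, 930 for Gata3, 779 for Zbtb7b and 254 for Runx3, against 61.5 for Cd3e. Ikzf3, Tox, Bcl11b and Lef1 were at 40.2, 30.3, 30.3 and 14.4. The cells of origin of the factors were not tested. None passed adjustment. Between the models, 10 were called higher and 2 lower in 4T1, beside 40.8% of all genes called higher and 5445 genes lower.

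Finally, the members were compared with each other over tumors, as deviations from the mean of their group. In 4T1 (19 tumors), r between the 36 pairs without Cd247 ran from 0.68 to 0.98 with a median of 0.90, the highest being Cd8a with Cd8b1. In 66cl4 (20 tumors) the same pairs had r from -0.06 to 0.89 with a median of 0.55, and Cd3d with Cd3g was highest. Cd247 had r of 0.52 to 0.76 with the others in 4T1 and -0.22 to 0.33 in 66cl4. These values are descriptions, in which tumors share library depth and, at few reads, counting error.

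**Figure D5:**
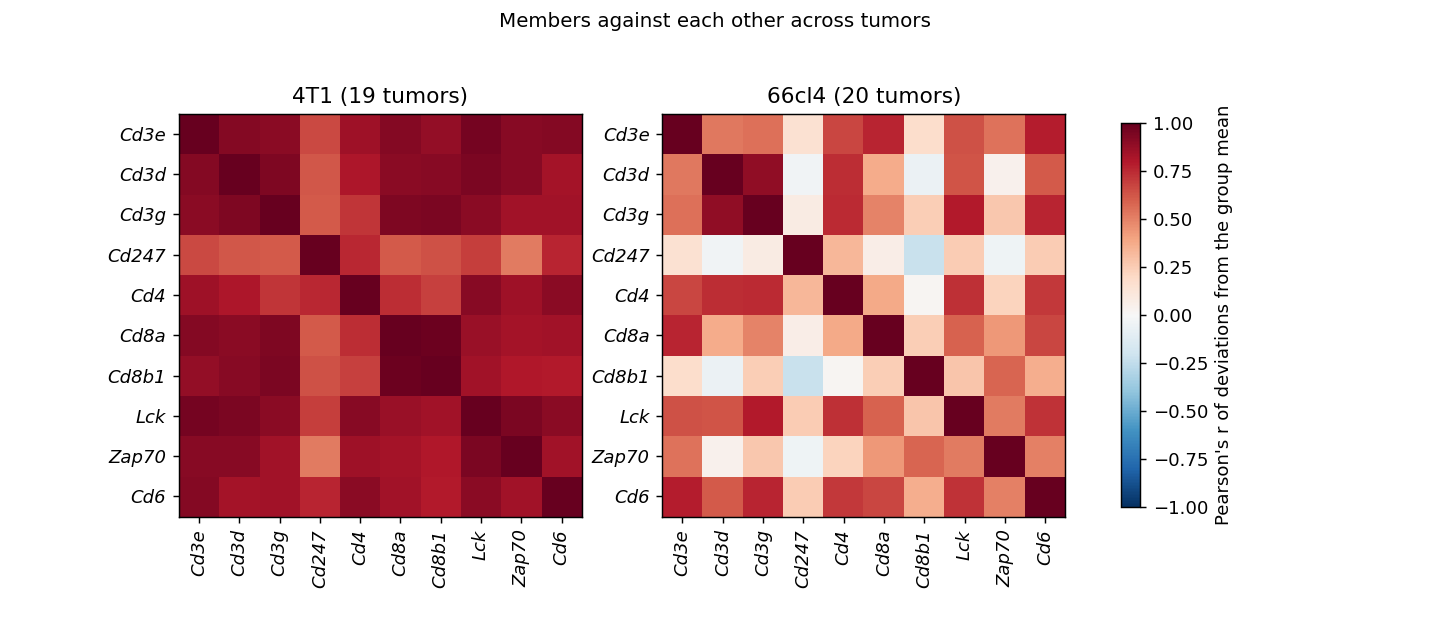
Pearson's r between members (color, from -1 to 1) of deviations from the group mean, for 19 4T1 tumors on the left and 20 66cl4 tumors on the right. Pairs without Cd247 have r of at least 0.68 in 4T1, and the row of Cd247 lies between -0.22 and 0.33 in 66cl4.

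Over 39 tumors, the genes outside the 10 that varied most like their mean included Ikzf3 (r = 0.94 over all tumors, 0.97 in 4T1, 0.67 in 66cl4). Ms4a4b (0.92), Grap2 (0.91), Gimap3 (0.91), Pglyrp2 (0.91), Nkg7 (0.90) and AB124611 (0.90) followed. The lowest values were those of Gm17634 (-0.81), Kank3 (-0.80) and Micall2 (-0.80). Kank3 and Micall2 had a negative r of -0.80 and -0.83 in 66cl4 as well, whereas Gm17634 had -0.19.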

How the data were processed

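RNA sequencing of whole primary tumors was analysed from 1 table of 39 tumors, with a replicate being a tumor with its own number in the labels. Untreated 4T1 tumor 3 was not analysed here. The authors made TruSeq stranded libraries, aligned reads to mm10 by HISAT2, counted with summarizeOverlaps and removed low genes. The unit of the deposited values is log2-like: the authors applied the variance stabilizing transformation of DESeq2. Versions and the annotation are not given in the sources used here. Few reads per gene are compressed by this scale.

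The transformation was inverted from the value of 0 reads, 6.0514, which gave whole reads for 100% of the values (tolerance 0.001). Intervals and SDs between tumors were used as precision. P-values measure only the spread between these tumors. Differences were tested with limma 3.58.1 in R 4.3.3 (mean-variance trend, 4 groups of a model in 1 fit, all 39 tumors between models) and adjusted by Benjamini-Hochberg over 14318 genes, with a threshold of 0.05. Figures were drawn with matplotlib 3.10.9 in Python 3.11.15. The fits were tested on simulated data. Lists were genes next to the receptor, T-cell transcription factors, and markers of T, NK and B cells, 2 kinds of dendritic cells, macrophages, neutrophils, naive lymphocytes or lymph nodes, lactating epithelium, skeletal muscle and tumor epithelium. Named genes were the members, up to 4 genes per list and comparison with the smallest unadjusted p, and the 8 highest and 3 lowest correlated genes, of which 1 is not reported here. Members and lists were chosen with earlier results of these data known. Positions are from RefSeq (GRCm38.p6) and exon lengths from GENCODE vM21. Alternatives were a filter on low genes, no trend, other tumors in the fit, median centring, quantile normalization, tumor weights, a replicate block, limma-voom, equal depth and leaving out each tumor.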

Additional observations from a re-analysis of the deposited data

Results flagged for a closer look

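Of 80 sets of a member in a group, 8 held a tumor that stood apart from the rest of its group by Dixon's criterion. Chance meets this criterion in about 1 of 20 sets. The sets share tumors and the members followed each other, so the sets are not independent and the count cannot be held against that share. In the 4T1 chitin + anti-PD-1 group, tumor 5 stood high for Cd3d (7.38 on the VST scale), Lck (8.27) and Zap70 (7.61). Untreated 4T1 tumor 5 stood high for Cd6 (7.72), chitin 4T1 tumor 5 for Cd247 (7.81), and anti-PD-1 4T1 tumor 3 for Cd8b1 (8.55). In 66cl4, tumor 2 of the combination stood high for Cd8a (7.21), and tumor 4 of the anti-PD-1 group stood low for Cd8b1 (6.25), which there rested on 1 read.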

How the results depend on the processing

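No treatment comparison called a gene in the reported fits, so every alternative that called one changed the count. With both models in 1 fit, 60 genes and 2 members were called for anti-PD-1 against untreated in 4T1, 294 and 9 for the combination against anti-PD-1, 3 genes for the combination against untreated, and in 66cl4 1 gene for the combination against anti-PD-1. With tumor weights, the calls were 960 genes and 8 members, 2127 and 10, 2 genes in 66cl4 for the combination against anti-PD-1, and 331 genes and 3 members for the anti-PD-1 effect between models. Quantile normalization called 2 genes for the 4T1 combination against anti-PD-1. Leaving out each tumor gave 0 to 80 genes and 0 to 1 members for anti-PD-1 in 4T1, 0 to 202 genes and 0 to 5 members for the combination against anti-PD-1, 0 to 86 genes for the anti-PD-1 effect between models, 0 to 25 for chitin in 66cl4 (25 without untreated tumor 3), 0 to 3 for the combination against untreated and 0 to 3 for the combination against anti-PD-1 in 66cl4. The cause of these calls was not tested. Leaving out the lowest 25% of genes left 3 members called between models, since 6 of the 10 members fall under that filter.

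With the replicate block, 1 gene was called for each 4T1 combination comparison, 2 for chitin and 7 for the combination in 66cl4, and no member call changed. Same-numbered tumors of different groups had r of -0.39 to 0.45 in 4T1 (median -0.017) and -0.30 to 0.54 in 66cl4 (median 0.026). Tumors with unequal numbers had -0.57 to 0.68 (median 0.0040) and -0.49 to 0.53 (median -0.014). When a tumor was compared with another group, its own number was the best match in 30 of 114 cases. Whether the numbers mark pairs cannot be told from these values. Not all member differences were followed. Left out were some of the smallest, such as Lck (-0.0045) for chitin in 4T1. Of the 71 followed, 66 kept their direction in every alternative run, a share that does not cover those left out. The Cd8a anti-PD-1 effect between models reversed with limma-voom (-0.16). Without single tumors, Cd247 ranged from -0.035 to 0.14 for the 4T1 combination against untreated, and in 66cl4 from -0.022 to 0.055 for chitin and -0.0054 to 0.070 for the combination, and Cd8b1 from -0.37 to 0.033 for chitin in 4T1. Low read numbers limit the members in 66cl4 other than Cd247 and Lck, most of all Cd8b1, Cd3d and Cd6. In untreated 66cl4 tumors Cd3e had 6 to 17 reads, Cd8a 7 to 21 and Zap70 11 to 15.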

Other observations

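For anti-PD-1 against untreated tumors in 4T1, marker lists not described above had median differences of 0.16 for plasmacytoid dendritic cells, 0.07 for neutrophils and -0.15 for tumor epithelium. Skeletal muscle markers had a median of 0.23 there, with a summed normalized count of 260 to 8085 against 109 to 4007 untreated.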
